A study of Rattus norvegicus with 9 samples.

Results

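The genes described here are 10 genes known as markers of the cell fields of the hippocampus: Prox1, Cabp7, Pkp2, Dsp, Wfs1, Zbtb20, Nhlh1, Lpl, Lrrc10b and Slc9a4. They were chosen by name, with the higher values in hippocampus (HC) than in prefrontal cortex (PFC) already known, and each was to be represented by its probe set with the highest mean over 9 arrays. A probe set paired with the symbol was found for 9 of the 10, out of 14506 genes with a probe set, and each of the 9 had 1 probe set. Dsp, which encodes the desmosomal protein desmoplakin, was not analysed here. Because the choice rested on HC against PFC, and blood was named as the next comparison, the differences of HC from PFC and from blood are given as a description with no test.

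The arrays were hybridized with RNA of HC, PFC and blood of 3 untreated male Wistar rats, numbered 2, 5 and 7, with 1 array per tissue and rat. The methods give the animals as 6 weeks old, housed for 1 week before they were killed. The methods speak of 4 rats with 1 sample omitted and the sample protocol of 6 rats, so the number of animals was taken from the arrays. HC and PFC were punched from frozen brain slices and blood was drawn into an RNA stabilizing agent, so each brain array holds all cell fields and cell types of a punch. A lower value in such a sample can come from fewer cells of a type or from less RNA per cell, which cannot be told apart.

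The hippocampus is built from the dentate gyrus and the pyramidal cell fields CA3, CA2 and CA1, linked in a chain of excitatory connections that serves the formation of memory. The principal neurons of each field carry their own set of transcription factors, calcium-binding proteins and adhesion molecules, which is why single genes can mark a field. Prox1 is the classic transcription factor of dentate granule cells, and Wfs1, an endoplasmic reticulum protein mutated in Wolfram syndrome, is a classic marker of CA1. Zbtb20 is a transcriptional repressor that, in the mouse, is needed for hippocampal neurons to take on their identity, and it is also made by astrocytes. Blood has none of these neurons and served as the distant tissue.

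RMA values, the summarized and normalized array signals on the log2 scale, ran from 1.53 to 14.01, and the means of the 9 arrays lay between 6.154 and 6.202. A value of 6.2, the cut-off of the study, was used to call a probe set present, and the 95th percentile of 1298 probe sets of chemosensory receptor genes (4.88 in HC, 4.85 in PFC, 5.53 in blood) was used as a background limit. The limma test ran over 16884 probe sets present in at least 1 tissue. All 9 genes passed this filter, but Prox1, Pkp2, Nhlh1, Lpl and Slc9a4 passed it through HC alone. Of genes of other cell types that a punch could hold, 1 of 9 astrocyte, 6 of 7 oligodendrocyte and 2 of 4 choroid plexus genes tested were higher in HC than in PFC by the limma test, which called 4.51% of all probe sets higher. Of the leptomeningeal genes 3 of 8 were lower in HC, and of the red cell genes 2 of 6, with 4.66% of all probe sets called lower.

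Of the 9 genes, 5 had an entry in the table of RefSeq promoters (assembly GRCr8). The 250 bases before the gene start are shown for the 3 of them that hold an E-box, the letters CANNTG to which basic helix-loop-helix factors such as Nhlh1 bind, with the E-box in capitals. CANNTG reads the same class of letters on both strands, and 65.5% of 33469 promoters of this length hold at least 1.
Nhlh1, chr13:87054935-87055184, minus strand: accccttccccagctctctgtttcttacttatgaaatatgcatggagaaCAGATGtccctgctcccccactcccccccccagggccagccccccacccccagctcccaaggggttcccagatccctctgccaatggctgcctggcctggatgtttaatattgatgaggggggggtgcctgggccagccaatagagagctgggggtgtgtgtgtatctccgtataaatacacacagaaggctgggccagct
Wfs1, chr14:78034955-78035204, plus strand: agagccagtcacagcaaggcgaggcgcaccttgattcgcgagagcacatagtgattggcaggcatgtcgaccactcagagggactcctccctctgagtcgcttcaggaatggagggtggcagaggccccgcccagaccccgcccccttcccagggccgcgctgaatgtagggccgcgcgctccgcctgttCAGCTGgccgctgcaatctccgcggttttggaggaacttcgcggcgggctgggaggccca
Slc9a4, chr9:50320698-50320947, plus strand: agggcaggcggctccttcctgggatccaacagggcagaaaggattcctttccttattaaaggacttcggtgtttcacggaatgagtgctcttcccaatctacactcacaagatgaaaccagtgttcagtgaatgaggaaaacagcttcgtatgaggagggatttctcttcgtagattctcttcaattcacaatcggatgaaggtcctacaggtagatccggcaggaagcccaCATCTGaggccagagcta
Each of the 3 held a single E-box. That of Wfs1 was CAGCTG, found in 4007 of the 33469 promoters, and those of Nhlh1 and Slc9a4 were the same letters read on opposite strands, CAGATG and CATCTG, found in 4673. No CANNTG lay in the same window of Cabp7 and Lrrc10b, which were rich in G and C (76.0% and 81.2%, against a median of 51.2% over all promoters). The Nhlh1 window alone held the letters TATAAA on either strand, which 12.9% of promoters hold, and its GC content was 58.4%. CCAAT, counted on either strand, was found in Nhlh1, Wfs1 and Slc9a4 and in 34.0% of all promoters. A match in these letters is a description and not a binding site.

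All 9 genes stood higher in HC than in PFC and blood, in each rat and with no overlap between the arrays. HC minus PFC ran from 1.28 for Wfs1 to 3.52 for Cabp7 with a median of 2.85, whereas the median over all probe sets tested was near 0. Non-overlap was found in 20.9% of all probe sets tested with HC above PFC and in 21.0% with HC below, but the genes were chosen on this contrast and the count supports nothing. Set in order of HC minus PFC among the 16884 probe sets, Cabp7 was the 4th from the top, Prox1 the 5th, Slc9a4 the 7th, Lrrc10b the 8th, Pkp2 the 10th, Lpl the 12th, Nhlh1 the 27th, Zbtb20 the 64th and Wfs1 the 119th. The median of HC minus blood was 3.30 (range 1.25 to 3.84), against 0.22 over all probe sets tested, and HC lay above blood with no overlap in 47.9% of them. By the limma test 47.6% of all probe sets were higher and 36.3% lower in HC than in blood, 8030 and 6133, but centred on 17 housekeeping genes the counts were 5260 and 8284, and centred on the median of the arrays 6178 and 7897. The median of all HC minus blood differences moved by -0.54 and -0.38 with these scalings.

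**Figure D1:**
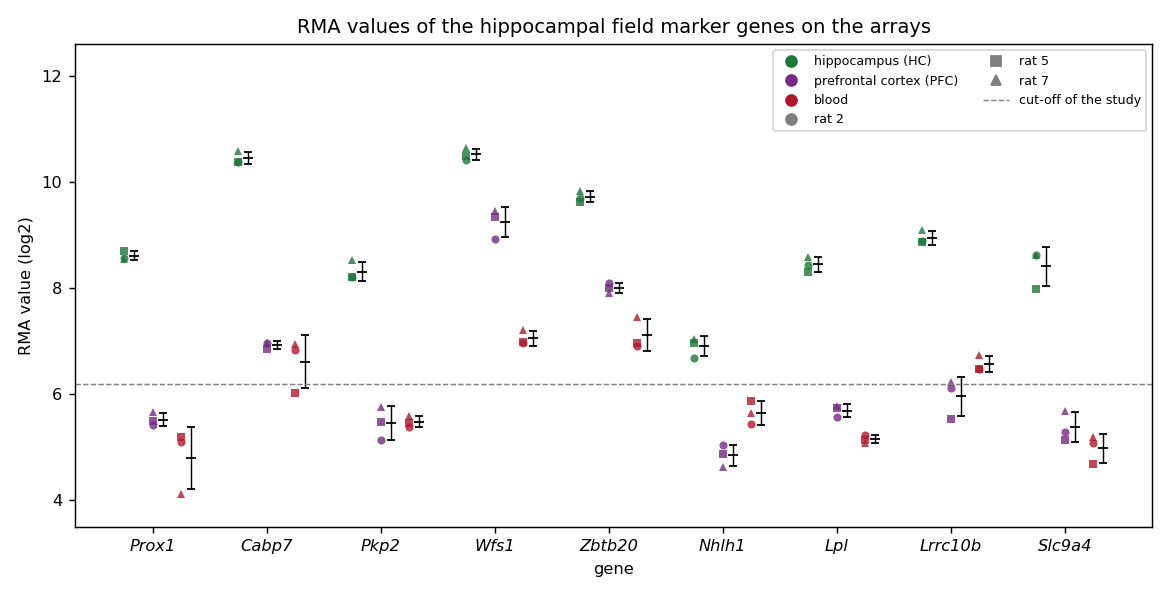
RMA values (log2, vertical axis) of the 9 field marker genes on the 9 arrays, with HC left, PFC in the middle and blood right for each gene. Symbols stand for rats, bars for the mean and SD of 3 arrays, and the dashed line for the cut-off of 6.2; the 3 HC arrays lie above all PFC and blood arrays for each gene, and PFC lies well above the cut-off only for Wfs1, Zbtb20 and Cabp7.

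Among the transcription factors, Prox1 (probe set 10770680) had RMA values of 8.57, 8.70 and 8.55 in HC of rats 2, 5 and 7, of 5.42, 5.49 and 5.66 in PFC, and of 5.10, 5.19 and 4.12 in blood. The HC arrays lay close together and far above the rest, and the blood array of rat 7 was about 1 unit below the other blood arrays. The difference between HC and PFC was 3.09 with an SD over rats of 0.17, a fold of 8.49. Blood was below the background limit, and with blood raised to this limit HC minus blood was 3.07.

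Zbtb20 (probe set 10754116) had 9.69, 9.63 and 9.83 in HC, 8.09, 8.01 and 7.91 in PFC, and 6.90, 6.96 and 7.46 in blood. Unlike Prox1, it was present in all 3 tissues. For both genes PFC lay between HC and blood, with no overlap between the tissues. Zbtb20 was higher in HC than in PFC by 1.71 (SD over rats 0.17), a fold of 3.28, and HC minus blood was 2.61 (SD 0.22). Astrocytes also make Zbtb20. Of the 9 astrocyte genes tested only Gfap, the intermediate filament of astrocytes, was past the limma test between HC and PFC, at 1.55 (standard error 0.177, limma adjusted p = 0.000427). The blood arrays entered the standard errors of this test. Aqp4 (0.59), Gja1 (0.37), Slc1a3 (0.31) and Slc1a2 (0.21) did not pass, but HC lay above PFC with no overlap, as in 20.9% of all probe sets. Aldoc, Gjb6, S100b and Fgfr3 overlapped. The mean level of the astrocyte list ran from 10.44 to 10.52 in HC and from 10.14 to 10.16 in PFC, and its part in the Zbtb20 values was not tested.

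Nhlh1 (probe set 10769929), a basic helix-loop-helix factor of young neurons, had 6.69, 6.97 and 7.04 in HC, 5.04, 4.88 and 4.63 in PFC, and 5.43, 5.88 and 5.65 in blood. Here PFC and not blood was the lowest tissue, and its mean of 4.85 was, to 2 decimals, the background limit of PFC. The blood mean of 5.65 was likewise close to the blood limit of 5.53. The part of the unequal limits in the order of PFC and blood was not tested. HC minus PFC was 2.05, with the widest spread over rats of the 9 genes (SD 0.38; 1.66 in rat 2, 2.09 in rat 5 and 2.41 in rat 7). HC minus blood was 1.25 (SD 0.15), the smallest of the 9.

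Among the genes of membranes, junctions and the secretory path, Wfs1 (probe set 10773290) had 10.42, 10.48 and 10.64 in HC, 8.93, 9.34 and 9.45 in PFC, and 6.96, 6.98 and 7.21 in blood. It was present in every tissue and had the smallest HC minus PFC difference of the 9, 1.28 (SD over rats 0.19), a fold of 2.42. HC minus blood was 3.47 and nearly the same in each rat (SD 0.04).

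Cabp7 (probe set 10778110), a calcium sensor that restrains a phosphatidylinositol 4-kinase at the Golgi, had 10.38, 10.38 and 10.58 in HC, 6.97, 6.85 and 6.97 in PFC, and 6.83, 6.03 and 6.95 in blood. PFC and blood overlapped, since only the blood array of rat 5 was clearly lower. Its HC minus PFC was 3.52, a fold of 11.5, the largest of the 9 genes and the steadiest over rats (SD 0.10). HC minus blood was 3.84 (SD 0.44).

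Pkp2 (probe set 10752576), an armadillo protein of desmosomes, had 8.20, 8.21 and 8.53 in HC, 5.13, 5.48 and 5.76 in PFC, and 5.39, 5.46 and 5.58 in blood. The PFC and blood arrays were intermingled. Pkp2 was higher in HC than in PFC by 2.85 (SD over rats 0.19), a fold of 7.23. Blood was below the background limit, and HC minus blood was 2.78 with blood raised to it.

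Slc9a4 (probe set 10922895), a sodium/proton exchanger of the plasma membrane, had 8.63, 7.99 and 8.63 in HC, 5.29, 5.14 and 5.69 in PFC, and 5.08, 4.68 and 5.19 in blood. Rat 5 was lowest in all 3 tissues, and the HC spread (SD 0.37) was the widest of the 9 genes. HC minus PFC was 3.04 (SD over rats 0.26), a fold of 8.21, and HC minus blood was 2.88 with blood raised to the background limit.

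Lpl (probe set 10791250), lipoprotein lipase, which frees fatty acids from lipoproteins, had 8.43, 8.31 and 8.59 in HC, 5.56, 5.74 and 5.78 in PFC, and 5.23, 5.14 and 5.07 in blood. The 3 tissues did not overlap. HC minus PFC was 2.75 (SD over rats 0.16), a fold of 6.74, and HC minus blood was 2.91 with blood raised to the background limit. Lrrc10b (probe set 10728700), which encodes a leucine-rich repeat protein, had 8.89, 8.86 and 9.09 in HC, 6.12, 5.54 and 6.23 in PFC, and 6.48, 6.48 and 6.74 in blood, so that PFC was again the lowest tissue. Its HC minus PFC was 2.98 (SD over rats 0.30), a fold of 7.92, and its HC minus blood was 2.38 (SD 0.03).

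**Figure D2:**
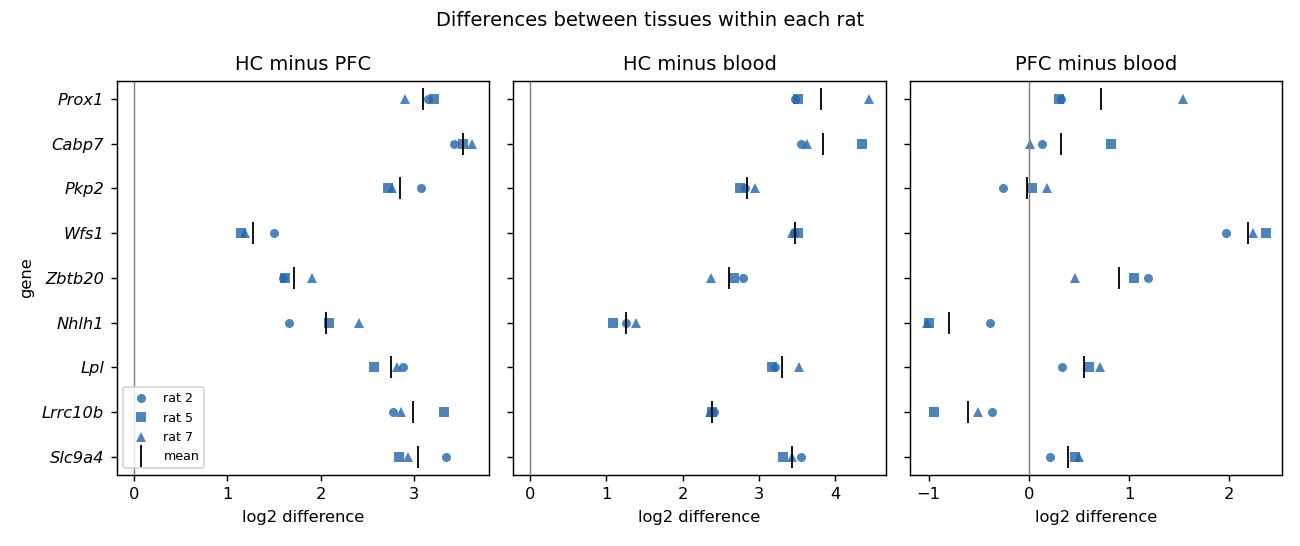
Log2 differences (horizontal axis) of HC minus PFC, HC minus blood and PFC minus blood within each rat, for the 9 field marker genes. Symbols stand for rats and the upright strokes for the mean of 3; in the left and middle panels every symbol is above 0, while in the right panel Nhlh1 and Lrrc10b lie below 0 in each rat.

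PFC against blood, whose difference does not use the HC values, was tested for the 9 genes in the same fit, adjusted over all 16884 probe sets. The HC arrays still entered the standard errors. Prox1, Pkp2, Nhlh1, Lpl and Slc9a4 passed the filter through HC alone, so their means were below the cut-off in both PFC and blood. The PFC and blood arrays did not overlap for 6 of the 9 genes, where non-overlap held for 47.4% of all probe sets with PFC above blood and for 36.5% with PFC below. By the limma test 4 genes were higher in PFC, in a fit that called 47.3% of all probe sets higher, and 2 were lower, with 36.7% of all called lower. Wfs1 was higher in PFC by 2.19 (standard error 0.142, limma adjusted p = 2.37e-07), Zbtb20 by 0.90 (standard error 0.143, limma adjusted p = 0.000203), Prox1 by 0.72 (standard error 0.24, limma adjusted p = 0.0177) and Lpl by 0.55 (standard error 0.103, limma adjusted p = 0.000637). Nhlh1, at -0.80 (limma adjusted p = 0.00064), and Lrrc10b, at -0.61 (limma adjusted p = 0.00784), were lower in PFC than in blood in each rat. Cabp7 (0.32, limma adjusted p = 0.17), Slc9a4 (0.39, limma adjusted p = 0.112) and Pkp2 (-0.02, limma adjusted p = 0.92) did not pass the test. With the rat as a block Slc9a4 passed (limma adjusted p = 0.0121). With PFC and blood raised to their background limits, the difference was -0.01 for Prox1, -0.16 for Slc9a4 and 0.16 for Lpl.

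The scaling of the arrays mattered for PFC against blood. Centred on the housekeeping genes, the median difference of all probe sets moved by -0.51, the split of calls went to 5315 higher and 8221 lower, against 7979 and 6197. Among the 9 genes Wfs1 alone remained higher, and Pkp2, Nhlh1 and Lrrc10b were lower. Centred on the median of the arrays, the shift was -0.37, the split was 6185 higher and 7929 lower, Wfs1 and Zbtb20 remained higher, and the same 3 genes were lower. Prox1 also missed the test without the PFC array of rat 7 (0.65, limma adjusted p = 0.0577), and its difference was 0.38 without the blood array of rat 7 and 0.31 without rat 7. For Lrrc10b the difference was -0.39 without the PFC array of rat 5. Cabp7 passed it without the blood array of rat 7 (0.50, limma adjusted p = 0.0482). The HC minus PFC differences of the 9 genes moved by less than their spread over rats under both scalings.

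Within a tissue, the arrays of rat 7 tended to be the highest. In HC, rat 7 was highest for 7 of 9 genes (Cabp7, Pkp2, Wfs1, Zbtb20, Nhlh1, Lpl and Lrrc10b), whereas rat 7 was highest for 35.6% of all probe sets tested in HC. In PFC it was highest for 6 of 9, against 31.2% of all, and in blood for 6 of 9, against 35.6% of all. Of those counted in blood, Pkp2 and Slc9a4 had means below the background limit. The deviations were small: the median of the 9 genes in rat 7 was 0.14 above the HC mean, 0.13 above the PFC mean and 0.16 above the blood mean. The median SD over 3 arrays was 0.13 in HC, 0.20 in PFC and 0.23 in blood for the 9 genes, against 0.07, 0.08 and 0.22 for all probe sets tested, so that in both brain regions the 9 varied more between rats than the typical probe set.

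**Figure D3:**
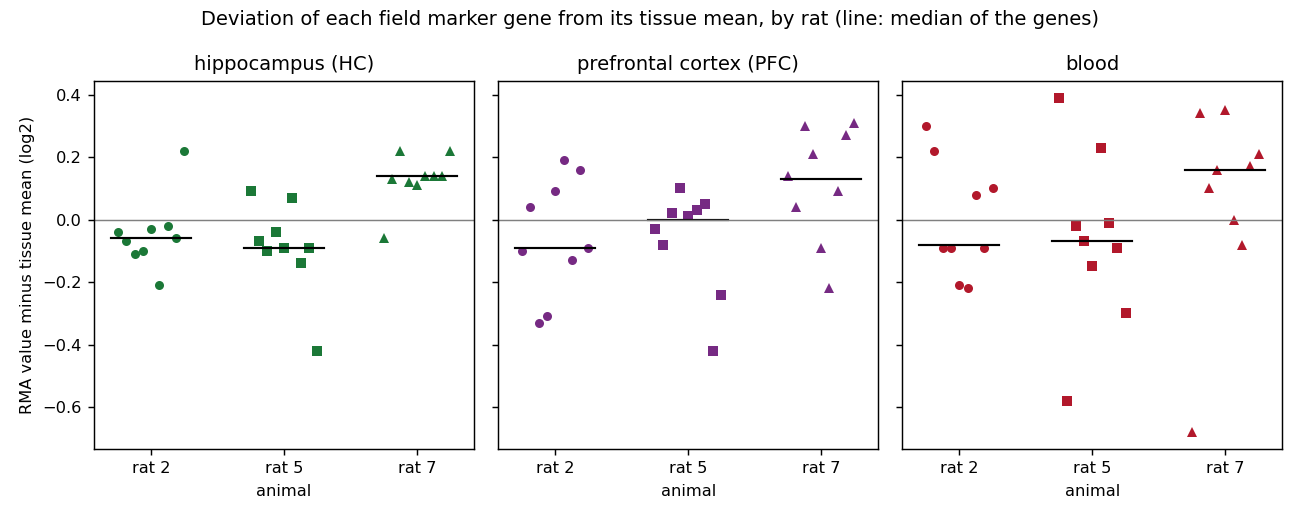
Deviation of the RMA value from the tissue mean (log2, vertical axis) for the 9 field marker genes in each rat, with 1 panel per tissue. Each symbol is 1 gene and each line the median of the 9 genes; the median of rat 7 is the highest of the 3 in HC, PFC and blood, at 0.14, 0.13 and 0.16.

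All 9 genes were chosen as high in HC, so that a high correlation over the arrays of 3 tissues was set by the choice and is given as a description. Pearson's r between pairs of the 9 genes had a median of 0.937 over 36 pairs, was highest for Cabp7 and Slc9a4 (0.99) and lowest for Wfs1 and Nhlh1 (0.46). The genes most like each of the 9 were sought among all named probe sets by the same measure, and are given as a description, since the 9 points share tissues and animals. Closest to Prox1 were Wipf3, an actin regulator, at r = 0.989, Lpl at 0.986 and the guidance receptor Nrp1 at 0.985. Nrp1 was also the closest to Lpl, at 0.995, and stood at 9.26 in HC, 7.71 in PFC and 7.49 in blood. Tanc1, a scaffold of the postsynaptic density, was closest to Cabp7 (0.992), followed by Slc9a4 (0.99) and Bok (0.986), and was the second closest to Lpl (0.993).

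Closest to Wfs1 was Cpne4, a calcium-dependent phospholipid-binding protein, at r = 0.998 (10.63 in HC, 8.70 in PFC, 5.47 in blood), followed by the netrin receptor Dcc and the myristoyltransferase Nmt1, both at 0.996. Pkp2 ran with Rnf2, a Polycomb ubiquitin ligase, at 0.992, and with Nrp1 and the serotonin receptor Htr5b, both at 0.988. Zbtb20 ran with the transcription factor Trps1 at 0.991, with Rcn3 at 0.988 and with Mid1 at 0.987. Slc9a4 ran with Cabp7 at 0.99, with Rgs14, a signalling regulator of CA2 neurons, at 0.99 and with Lpl at 0.989. Nhlh1 ran with Dph1 (0.983), Ptpre (0.970) and Cldn9 (0.969). Lrrc10b ran with Mtss1 (0.985), Epha8 (0.984) and the neuropeptide gene Nts (0.977).

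To set the 9 genes beside other markers of the same fields, 36 textbook markers of dentate granule, CA3, CA2 and CA1 cells were listed, of which 27 had a probe set and 22 were tested. The marker lists were chosen with earlier results of these data known, so their counts are given as a description. Of the 22, 13 were higher in HC than in PFC and 1 was lower, where the limma test called 4.51% of all probe sets higher and 4.66% lower. Their median difference was 0.78. C1ql2, Ntf3 and Plagl1 had passed the filter through HC alone, and with no filter 12 of 27 were higher. With the HC and PFC arrays alone in the fit, which called 2136 probe sets higher and 2210 lower against 761 and 786, 15 of the 22 were higher and 2 lower.

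Of the dentate granule cell markers, 4 of 6 tested were higher in HC and none was lower. C1ql2, a secreted synaptic organizer, was higher by 3.69 (standard error 0.147, limma adjusted p = 1.74e-06), with 8.60, 8.72 and 8.67 in HC against 5.08, 4.96 and 4.88 in PFC. Neurod1, a differentiation factor of granule neurons, had 8.01, 8.15 and 8.07 in HC against 6.46, 6.58 and 6.83 in PFC, a difference of 1.45 (standard error 0.153, limma adjusted p = 0.000264), and Rfx3, a transcription factor of ciliary genes, was higher by 1.32 (limma adjusted p = 0.000202). Pdyn, the dynorphin precursor, was higher by 0.87 (limma adjusted p = 0.0241). Calb1, the calcium buffer calbindin, did not pass the test (-0.48, limma adjusted p = 0.0997), nor did the channel gene Trpc6 (0.40, limma adjusted p = 0.142). For both genes HC and PFC did not overlap, with Calb1 at 9.03 in each HC array against 9.37, 9.51 and 9.65 in PFC. With the HC and PFC arrays alone in the fit, Calb1 was called lower and Trpc6 higher in HC.

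Of 5 CA3 markers tested, 3 were higher in HC and none was lower. The kainate receptor subunit Grik4 had 8.84, 8.76 and 9.0 in HC against 7.52, 7.52 and 7.50 in PFC, a difference of 1.35 (standard error 0.0868, limma adjusted p = 1.28e-05). Cpne4 was higher by 1.94 (standard error 0.289, limma adjusted p = 0.00222), with a wide spread in PFC (8.03, 8.81 and 9.25), and Bok, a member of the Bcl2 family, by 1.33 (limma adjusted p = 7.46e-05). Of 7 CA2 markers, 5 were higher in HC: the calcium-binding protein Necab2 by 1.35 (limma adjusted p = 0.00035), the neurotrophin Ntf3 by 1.24 (limma adjusted p = 0.000536), Rgs14 by 0.93 (limma adjusted p = 0.000447), the adhesion molecule Amigo2 by 0.69 (limma adjusted p = 0.0209) and the growth factor Fgf2 by 0.57 (limma adjusted p = 0.0294). Pcp4, a calmodulin regulator and CA2 marker, did not pass (-0.25, limma adjusted p = 0.377), with means of 10.62 in HC and 10.86 in PFC.

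The CA1 markers divided. Fibcd1 had 7.80, 7.30 and 7.86 in HC against 6.21, 5.91 and 6.04 in PFC, a difference of 1.60 (standard error 0.154, limma adjusted p = 0.000147). Mpped1, in contrast, was lower in HC by -0.47 (limma adjusted p = 0.0337), a call that was lost with the rat as a block, and Itpka and Pou3f1 did not pass (0.08 and 0.30). With the HC and PFC arrays alone in the fit, Pou3f1 was called higher in HC. Wfs1, the CA1 marker among the 9 genes, was the one with the smallest HC minus PFC difference.

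**Figure D4:**
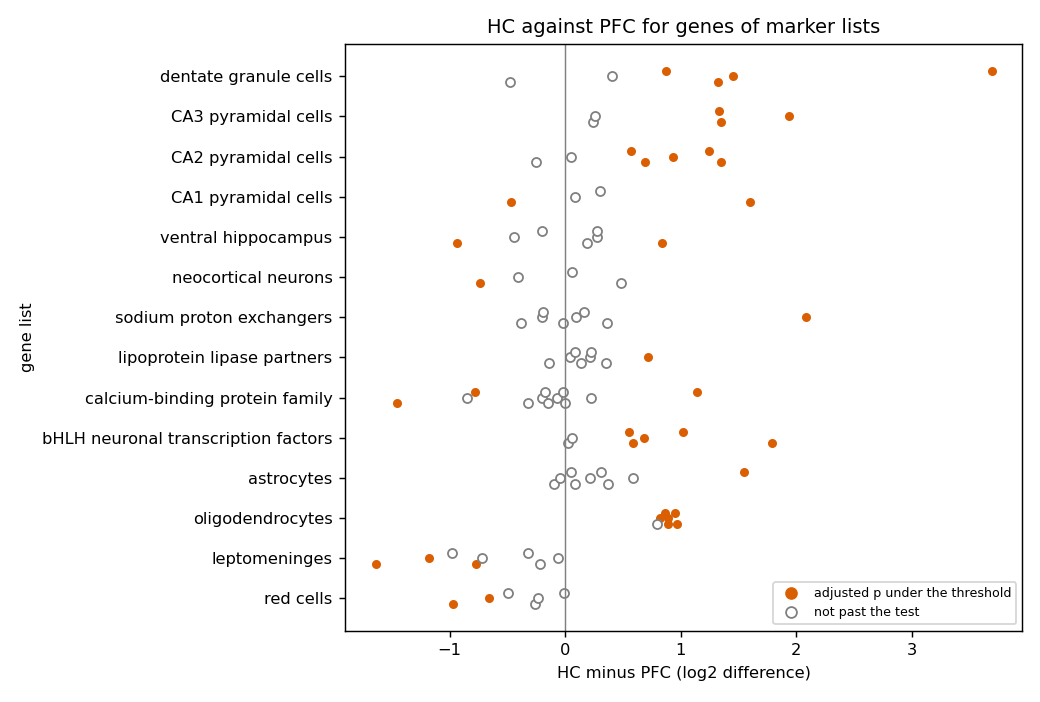
HC minus PFC (log2 difference, horizontal axis) of the tested genes of 14 marker lists, with the 9 field marker genes left out. Each point is 1 gene, filled where the limma adjusted p was under 0.05; points of the dentate, CA3 and CA2 lists past the test all lie to the right of 0, while filled points of the leptomeningeal and red cell lists lie to the left.

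The neocortical side of the comparison was thin. Of 12 neocortical neuron markers listed, 4 had a probe set, and 1, the transcription factor Cux1, was lower in HC (-0.74, standard error 0.124, limma adjusted p = 0.00442). Fezf2 (-0.41), Tle4 (0.06) and Rasgrf2 (0.48) did not pass the test.

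Relatives and partners of the 9 genes were set beside them. The limma test called 4.51% of all probe sets higher in HC than in PFC and 4.66% lower. Because the 9 genes were chosen as high in HC, the counts of their relatives are a description and no contrast with the 9 is drawn. Of the sodium/proton exchangers and their regulators, 1 of 8 tested was higher in HC and none lower: Slc9a2, with 8.03, 7.83 and 8.11 in HC against 5.71, 6.05 and 5.99 in PFC, a difference of 2.08 (standard error 0.127, limma adjusted p = 1.01e-05). Slc9a2 had passed the filter through HC alone. In the gene table of assembly GRCr8, Slc9a2 and Slc9a4 are neighbours on chromosome 9 with no protein-coding gene between them, and Slc9a2 was the 3rd closest to Lpl over the 9 arrays (r = 0.993). Slc9a5, Slc9a7, Slc9a8 and Slc9a9 lay between -0.38 and 0.16 and did not pass.

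Of 12 tested genes for relatives of Cabp7, other calcium-binding proteins and the kinase Pi4kb, 1 was higher and 2 were lower in HC. The shares of all probe sets were 4.51% higher and 4.66% lower. Hpca, hippocalcin, was higher by 1.14 (limma adjusted p = 7.68e-05). Cabp1 ran the other way, with 7.06, 6.95 and 7.06 in HC against 8.66, 8.45 and 8.33 in PFC, a difference of -1.46 (standard error 0.165, limma adjusted p = 0.000402), while Cabp4 did not pass (-0.18). The calcium sensor Vsnl1 was also lower, by -0.78 (limma adjusted p = 0.0122), and Pi4kb, the kinase that Cabp7 restrains, did not pass (-0.07).

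Of the desmosome list, which also holds Des, the gene of the intermediate filament desmin, 7 genes had a probe set. Jup (-0.08) and Perp (0.55, limma adjusted p = 0.0522) were the only ones tested, and neither passed. Pkp1, Pkp3, Dsc2, Dsc3 and Des had means below the cut-off in all 3 tissues and were not tested. Of 8 partners of Lpl, only Apoc1, an apolipoprotein, was higher in HC (0.72, limma adjusted p = 0.0369), where 4.51% of all probe sets were higher. Apoe (0.35), Vldlr (0.21) and Lrp1 (0.14) did not pass. Of 11 endoplasmic reticulum genes set beside Wfs1, only Ryr2, the ryanodine receptor of calcium stores, was higher (0.71, limma adjusted p = 0.0231), again beside 4.51% of all probe sets. The chaperone Hspa5 (0.04) and the stress factors Atf6 (0.08) and Xbp1 (0.03) did not pass.

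Of 7 helix-loop-helix factors tested beside Nhlh1, 5 were higher in HC and none lower, where 4.51% of all probe sets were higher: Bhlhe22 by 1.79 (standard error 0.181, limma adjusted p = 0.00021), Neurod6 by 1.02 (limma adjusted p = 0.0138), Neurod2 by 0.68 (limma adjusted p = 0.0406), Tcf4 by 0.59 (limma adjusted p = 0.00521) and Tcf12 by 0.55 (limma adjusted p = 0.0355). Nhlh2, the closest relative of Nhlh1, stood at 7.02, 6.81 and 6.76 in HC and at 7.02, 6.64 and 6.86 in PFC, and did not pass (0.02, limma adjusted p = 0.977). Neurod6 and Neurod2 are made by pyramidal neurons of neocortex and hippocampus alike.

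Beside these differences, other cell types differed between the punches. The mean level of 7 oligodendrocyte genes was 9.97 to 10.30 in HC and 9.06 to 9.61 in PFC, and the widest differences past the test were those of Mog (0.97), Mobp (0.95), Ermn (0.89) and Cldn11 (0.89), genes of the myelin sheath. The choroid plexus list averaged 5.95 to 6.47 in HC and 5.12 to 5.19 in PFC, with Ttr at 11.20, 10.09 and 9.96 in HC. Kl, Clic6, Kcne2, Slc4a5, Prlr, Sostdc1 and Cldn2 had means below 6.2 in HC and were not tested. Their means were 5.76, 5.06, 5.56, 5.37, 3.64, 5.39 and 4.87 in HC against 5.20, 3.94, 5.50, 5.02, 3.61, 4.66 and 3.74 in PFC. Prlr and Cldn2 lay below the HC background limit of 4.88. Within HC, Kl, Clic6, Slc4a5, Prlr, Sostdc1 and Cldn2 were highest in rat 2, as Ttr was, and Kcne2 in rat 7. Ttr, the thyroid hormone carrier transthyretin, was higher in HC by 6.07 (limma adjusted p = 3.79e-06), and Enpp2, which makes lysophosphatidic acid, by 0.71 (limma adjusted p = 0.0229). Enpp2 stood at a mean of 9.37 in PFC, where Ttr stood at 4.35. Folr1 (0.24) and Aqp1 (-0.08), the other genes of this list that were tested, did not pass. Ttr had passed the filter through HC alone. The leptomeningeal list averaged 5.96 to 6.02 in HC and 6.64 to 6.66 in PFC, and the red cell list 5.35 to 5.58 in HC and 5.80 to 6.06 in PFC, against 12.05 to 12.31 in blood. Lower in HC were the leptomeningeal genes Ogn (-1.64), Aldh1a2 (-1.18) and Col3a1 (-0.77), and the red cell genes Hbb (-0.97) and Alas2 (-0.66). Aldh1a2 had passed the filter through PFC alone. The part of these cell types in the values of the 9 genes was not tested.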

How the data were processed

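The 9 whole-transcript arrays hold HC, PFC and blood RNA of 3 rats, and tissue and rat number were taken from the sample titles. The authors quantile normalized the intensities, summarized them per probe set by RMA with Affymetrix Power Tools, and deposited values that are read here as log2, since the base is not named. Of 29215 probe sets, 29214 had values; 15310 had 1 gene symbol, 323 several and 13581 none. Symbols were updated by gene ID through the RefSeq table of GRCr8, which matched 15279. The number of arrays limits the precision, and no detection p-values were used.

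Differences were fitted in limma 3.58.1 (R 4.3.3) by a model of the 3 tissues without a block, over 16884 probe sets with a mean above 6.2 in at least 1 tissue, and called at a Benjamini-Hochberg adjusted p under 0.05. The 3 tissues of a number are of the same animal, as the labels state, and the deviations of same-numbered HC and PFC arrays from their tissue means correlated at 0.137 to 0.287. The fit was tested on simulated data. An exact permutation test of 3 arrays against 3 cannot go below 0.1, so none is given.

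The 10 genes and the marker lists were chosen with earlier results of these data known. All 9 measured genes are named, with up to 4 genes past the test per list by the widest HC minus PFC difference, more where a count was 5 or fewer, and the 3 named probe sets closest to each gene. Genes not past the test were named after their values were seen. Alternatives covered the block, the filter, a fit of only the tissues compared, eBayes with trend and robust, the threshold, the scaling, the probe set per gene, the background limit, and leaving out each array and rat. Plots came from matplotlib 3.10.9 (Python 3.11.15).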

Additional observations from a re-analysis of the deposited data

Results flagged for a closer look

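Among the 9 genes and the 22 other field markers tested, 4 genes had HC above blood and PFC below blood in every rat. The background limit was 5.53 in blood and 4.85 in PFC, and its part in this order was not tested. Nhlh1 was at 1.25 for HC minus blood and at -0.80 for PFC minus blood. Lrrc10b was at 2.38 for HC minus blood and at -0.61 for PFC minus blood. Ntf3, the neurotrophin among the CA2 markers, was at 0.92 for HC minus blood and at -0.32 for PFC minus blood, which did not pass the test (limma adjusted p = 0.0675). Fibcd1, among the CA1 markers, was at 1.44 for HC minus blood and at -0.15 for PFC minus blood, which did not pass either (limma adjusted p = 0.367). The difference between the 2 effects was not tested for Nhlh1 and Lrrc10b, and for Ntf3 and Fibcd1 the HC minus PFC test is not independent of this choice, since the opposite signs by which they were picked put HC above PFC.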

How the results depend on the processing

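The HC minus PFC differences of the 9 genes kept their sign under both scalings, the mean of probe sets, the background limit and the loss of any rat, and their median of 2.85 ranged from 2.69 to 3.01 when 1 array or rat was left out. The median of HC minus blood, 3.30, was 2.76 with the housekeeping scaling, 2.92 with the median scaling, 2.88 with values raised to the background limit, and 3.19 to 3.37 with 1 array or rat left out. With the replicate block, 5 of the 9 genes were higher and 2 lower in PFC than in blood, against 4 and 2, while the count of other field markers higher in HC than in PFC was 13 as before and the count lower was 0, against 1; the block gave 670 probe sets higher and 720 lower.

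Of all probe sets, 761 were higher and 786 lower in HC than in PFC. These counts were 2136 and 2210 with the HC and PFC arrays alone, 405 higher with the housekeeping scaling, and 416 and 452 at an adjusted p under 0.01. They ranged from 318 to 1303 higher and from 338 to 1329 lower with 1 array or rat left out, the highest being without the blood array of rat 5 and the lowest without rat 7. Between 9 and 13 field markers outside the 9 genes were higher with 1 array or rat left out. The single field marker lower in HC, Mpped1, became 2 genes with the HC and PFC arrays alone and 0 with the housekeeping scaling, no filter, the replicate block and the stricter threshold, and 0 to 2 with 1 array or rat left out. The single neocortical marker lower in HC became 0 with the housekeeping scaling, and 0 to 1 when arrays or rats were left out, with 0 without rat 2.

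For PFC against blood, the count of the 9 genes higher was 1 with the housekeeping scaling and 2 with the median scaling, and 3 to 5 with 1 array or rat left out, and the count lower was 1 with the filter at 7.2, where Nhlh1 is not tested. Cabp7 turned to -0.19 with the housekeeping scaling and -0.05 with the median scaling, and Slc9a4 to -0.12 with the housekeeping scaling. Pkp2 turned to 0.15 without the PFC array of rat 2, to 0.03 without the blood array of rat 7 and to 0.10 without rat 2, in a range of -0.17 to 0.15. The causes were not tested.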

Other observations

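Genes of the ventral pole of the hippocampus were mixed between HC and PFC. Of 7 tested, the proteoglycan Gpc3 was higher in HC (0.84, standard error 0.154, limma adjusted p = 0.00714), and Grp, a neuropeptide also made in neocortex, was lower, with 6.13, 5.79 and 5.91 in HC against 6.78, 6.94 and 6.93 in PFC (-0.94, limma adjusted p = 0.00204). Of 9 transcription factors of the developing hippocampus, Lhx9 (1.13, limma adjusted p = 0.00944) and Emx2 (0.49, limma adjusted p = 0.0453) were higher in HC and Meis2 was lower (-1.63, standard error 0.182, limma adjusted p = 0.000376). Emx2 had passed the filter through HC alone, with a mean of 6.21. Lhx9 is also a gene of the thalamus, and its HC values were 5.80, 6.49 and 6.70. Of the striatal markers, 1 of 5 tested was past the limma test, Penk, the enkephalin precursor, which was lower in HC (-0.93, limma adjusted p = 0.0114). Of 8 endothelial genes tested, Esam alone passed the test and was lower in HC (-0.32, limma adjusted p = 0.0369), where 4.66% of all probe sets were lower. Kdr (-0.28), Flt1 (-0.25), Tek (-0.23) and Pecam1 (-0.19) did not pass, but HC lay below PFC with no overlap, as in 21.0% of all probe sets. Cldn5 (-0.25), Abcb1a (-0.23) and Slco1c1 (0.10) overlapped.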
